A study of Mus musculus with 14 samples.

Results

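The genes examined were 5 genes of the GABA cycle: Gad1 and Gad2, which make GABA, Slc32a1, which loads it into synaptic vesicles, Slc6a11, which takes it up from the extracellular space, and Abat, which breaks it down. They were chosen by name, with earlier results of these data known. Their rows were matched by gene identifier among the 39017 genes of the count table. All 5 were among the 21298 genes that passed the filter on low counts. RNA came from the hippocampus of young adult male mice on a C57BL/6 background that carried PV-Cre and a Cre-dependent EGFP-L10a allele, so every group, input included, had the same genotype. In translating ribosome affinity purification (TRAP), ribosomes bearing the tagged L10a protein are pulled from a homogenate, and the RNA on them is sequenced. The groups were 4 non-defeated TRAP samples (labelled CTRL, housed in pairs without an aggressor), 4 resilient (RES) and 3 susceptible (STR) TRAP samples, and 3 input samples of non-defeated mice (CTRL Input). The series' design text describes input as total RNA taken before TRAP, whereas the molecule type label of the input samples names translating RNA, as for TRAP, and the text here follows the design. Resilient and susceptible mice had both gone through chronic social defeat stress (CSDS), repeated daily attack by CD-1 aggressors, and were told apart by the time they then spent near an unfamiliar mouse. Each TRAP sample pooled both hippocampi of a mouse. The tag is on wherever PV-Cre has been active, which need not be PV interneurons of the hippocampus alone, and a change in a bulk sample cannot tell fewer cells of a type from less RNA per cell.

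GABA is the main fast inhibitory transmitter of the adult brain, and PV interneurons release it onto the cell bodies and axon initial segments of pyramidal cells. Glutamic acid decarboxylase makes it from glutamate with pyridoxal phosphate as cofactor. GAD67, the product of Gad1, is spread through the cytoplasm and makes most of the GABA of a resting cell, whereas GAD65, the product of Gad2, is anchored to vesicles at terminals. The vesicular transporter VGAT, the product of Slc32a1, exchanges GABA for protons that the vesicular proton pump has moved inside. After release, GABA is cleared by membrane transporters, of which GAT3, the product of Slc6a11, is known mainly from astrocytes. GABA transaminase, the product of Abat, converts GABA to succinic semialdehyde in mitochondria of neurons and glia, and Aldh5a1 encodes the enzyme of the next step into the citrate cycle.

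All 5 genes are protein coding and lie on the plus strand of mm10. Gad1 (ENSMUSG00000070880) spans chr2:70553072-70602014, Gad2 (ENSMUSG00000026787) chr2:22622205-22693874 and Slc32a1 (ENSMUSG00000037771) chr2:158610767-158615748. Slc6a11 (ENSMUSG00000030307) spans chr6:114131241-114249952 and Abat (ENSMUSG00000057880) chr16:8513429-8621568. Merged exons measured 7639 bases in Gad1, 5876 in Gad2, 2797 in Slc32a1, 5050 in Slc6a11 and 7748 in Abat. Slc32a1 shares 697 exon bases with the antisense gene Gm14205, which had between 89 and 872 counts per library, so reads in the shared stretch cannot be placed on a strand with a kit that does not mark it. Gad1os, antisense to Gad1, shares no exon base with it and had between 7 and 51 counts. A processed copy of Gad1 on chromosome 10, Gad1-ps, had counts equal to between 0.462% and 0.882% of those of Gad1.

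The promoters of 4 of the genes were read from RefSeq (GRCm38.p6). No promoter of Abat was available in the reference used. The first 3 belong to genes that were higher in TRAP than in input, as Abat was, and the last to the gene that was lower. Each run is written 5′ to 3′ on the plus strand, from 250 bases before the start of the gene to 50 after it, and capitals mark matches to the motifs searched. The Gad1 window is chr2:70561879-70562178, the Gad2 window chr2:22622077-22622376, the Slc32a1 window chr2:158610508-158610807 and the Slc6a11 window chr6:114130991-114131290.
Gad1: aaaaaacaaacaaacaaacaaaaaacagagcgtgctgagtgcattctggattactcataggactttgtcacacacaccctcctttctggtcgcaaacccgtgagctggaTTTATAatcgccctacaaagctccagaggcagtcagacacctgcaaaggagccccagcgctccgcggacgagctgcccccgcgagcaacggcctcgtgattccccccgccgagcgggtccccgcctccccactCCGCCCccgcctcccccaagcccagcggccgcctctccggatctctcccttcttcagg
Gad2: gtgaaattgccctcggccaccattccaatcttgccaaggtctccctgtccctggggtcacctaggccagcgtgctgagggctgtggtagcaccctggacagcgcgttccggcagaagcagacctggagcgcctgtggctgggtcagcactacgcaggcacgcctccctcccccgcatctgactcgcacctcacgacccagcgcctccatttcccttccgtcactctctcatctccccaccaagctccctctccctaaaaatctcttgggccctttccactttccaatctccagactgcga
Slc32a1: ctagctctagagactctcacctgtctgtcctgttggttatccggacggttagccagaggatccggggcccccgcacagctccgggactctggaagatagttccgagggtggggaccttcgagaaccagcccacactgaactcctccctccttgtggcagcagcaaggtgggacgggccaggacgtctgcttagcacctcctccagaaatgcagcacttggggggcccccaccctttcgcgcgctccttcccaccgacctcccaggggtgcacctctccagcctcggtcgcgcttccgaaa
Slc6a11: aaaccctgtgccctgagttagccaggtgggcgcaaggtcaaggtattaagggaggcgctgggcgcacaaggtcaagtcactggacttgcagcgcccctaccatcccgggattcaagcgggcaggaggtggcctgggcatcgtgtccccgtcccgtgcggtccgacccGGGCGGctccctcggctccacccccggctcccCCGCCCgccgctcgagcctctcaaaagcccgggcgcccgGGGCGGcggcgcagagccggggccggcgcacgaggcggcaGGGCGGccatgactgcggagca
Both strands were searched for a TATA box (TATAAA), for a GC box of the kind Sp1 factors bind (GGGCGG), for a homeodomain core as Dlx factors bind it (TAATTA), for a cAMP response element (TGACGTCA) and for an E-box (CACGTG). No match overlapped another in these windows. The Gad1 window held a match to the TATA box motif on the minus strand at position -141 from the start, and a match to the GC box motif at -8. The Slc6a11 window held the GC box motif 4 times. These are matches to strings of bases, and their function was not tested. The Gad2 and Slc32a1 windows held none of the 5 motifs. Of 32851 promoters of this length, which do not cover every chromosome, 13.6% held the TATA box motif and 35.7% the GC box motif. The homeodomain core was held by 5.29%, the cAMP response element by 1.79% and the E-box by 7.15%. GC content was 60% in Gad1, 61.3% in Gad2, 63.3% in Slc32a1 and 72.3% in Slc6a11. The window of Gad1 starts inside the longer gene model used for counting lengths.

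Library totals lay between 64110214 and 94726962 counts. Pvalb, the gene that drives the tag, exceeded its input level 57.5-fold in non-defeated TRAP (edgeR's quasi-likelihood test, adjusted p = 7.89e-11), and all 5 PV neuron markers rose. Markers of oligodendrocytes fell in 6 of 6 cases and of microglia in 5 of 5. Those of excitatory neurons fell in 6 of 6 and of astrocytes in 7 of 9. Of 4 endothelial markers none fell and 1 rose, Cldn5, at 2.95 CPM in TRAP and 1.26 in input (edgeR adjusted p = 0.0136). None of 8 thalamic neuron markers rose or fell at an adjusted p under 0.05. Summed astrocyte markers still held between 976 and 1729 CPM in TRAP libraries. Most of that sum was Aldoc, at a mean of 972 CPM in non-defeated TRAP and 1169 in input (log2 fold change -0.27, edgeR adjusted p = 0.279). Of 10 markers of other interneurons, 2 rose, Npy 6.92-fold and Sst 3.05-fold, and 7 fell. In 5 libraries, non-defeated 9 and 11, resilient 7, susceptible 10 and input 14, the 8 thalamic neuron markers summed to between 153 and 706 CPM, against 35.8 to 96.1 in the other 9. The number is the one in the sample name, and the TRAP libraries among the 5 all have numbers of 7 or more.

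**Figure D1:**
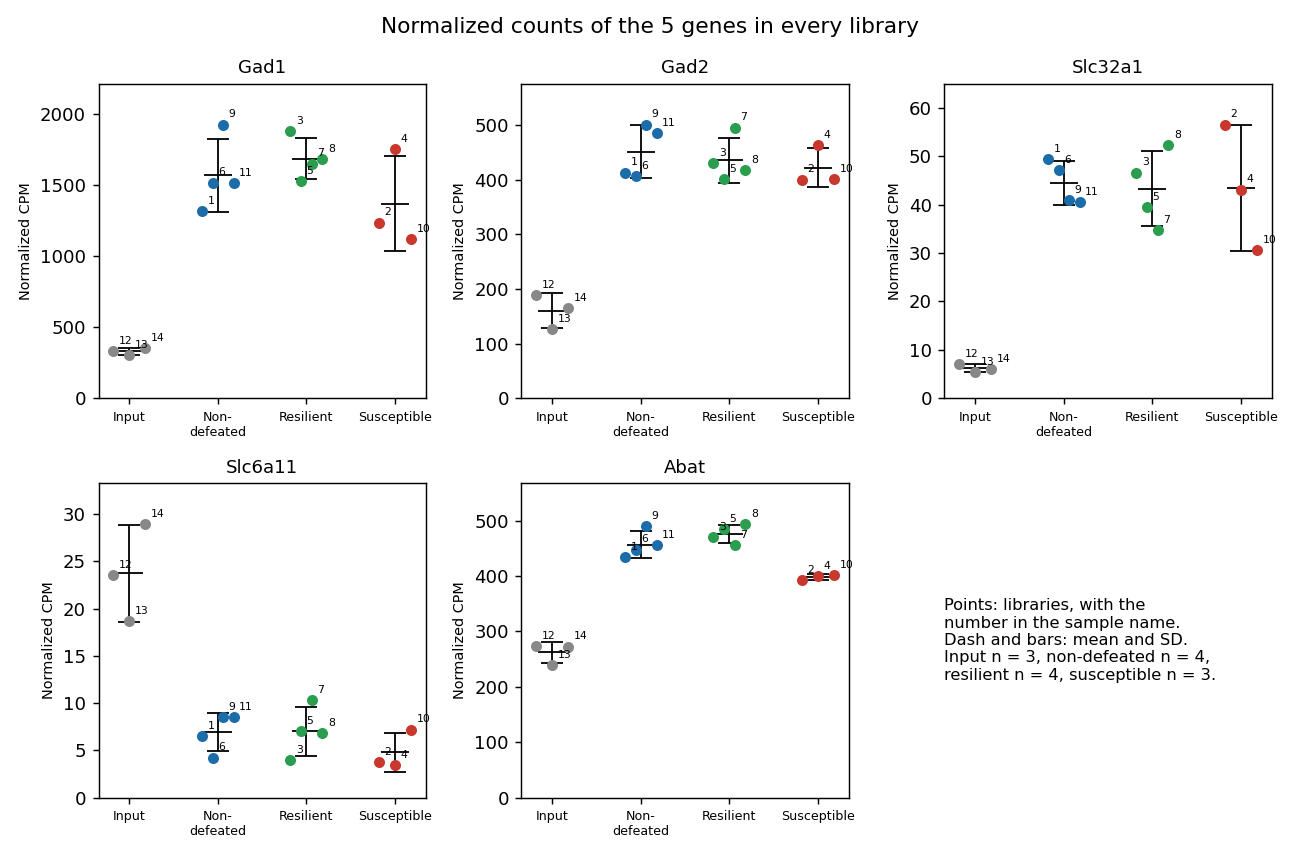
Counts scaled to normalized library size (CPM, vertical axes) of each gene in every library, by group (horizontal axes), with the number in the sample name beside each point and the mean and SD as dash and bars. Gad1, Gad2, Slc32a1 and Abat sat higher in all 11 TRAP libraries than in the 3 input libraries, Slc6a11 sat lower, and Abat in the 3 susceptible libraries lay between 392 and 401 CPM, below every other TRAP library.

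In non-defeated mice, the messages for making, loading and breaking down GABA were all higher on PV-tagged ribosomes than in total hippocampal RNA, and the message for the GABA transporter GAT3 was lower. Slc32a1 rose most, 7.27-fold, followed by Gad1 at 4.77-fold, Gad2 at 2.83-fold and Abat at 1.74-fold, while Slc6a11 fell to 0.293 of input. At an adjusted p under 0.05, 27.4% of all genes tested were higher and 27.6% lower in TRAP. The groups of all 5 genes did not overlap, which held for 62.0% of all genes tested. For each gene, the exact permutation test over libraries gave a 2-sided p of 0.0286, the smallest that 4 against 3 allows.

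Gad1 was measured at 1316, 1518, 1926 and 1513 CPM in non-defeated TRAP libraries 1, 6, 9 and 11, after normalization for library size. In input libraries 12, 13 and 14 it was measured at 330, 304 and 353 CPM. The lowest TRAP library thus stood far above the highest input library, at a log2 fold change of 2.25 ± 0.16 (standard error) and an edgeR adjusted p of 4.81e-08. Gad2 was measured at 413, 407, 501 and 486 CPM in the same TRAP libraries and at 189, 126 and 166 CPM in input. Input varied more for Gad2 (CV 19.9%) than for Gad1 (CV 7.38%), and its log2 fold change was 1.5 ± 0.13 (standard error, adjusted p = 4.27e-07).

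Slc32a1, the loading step, was measured at 49.4, 47.1, 40.9 and 40.5 CPM in TRAP and at 7.0, 5.38 and 5.95 CPM in input. Its log2 fold change was 2.86 ± 0.21 (adjusted p = 5.98e-08), with a 95% interval of 2.42 to 3.30 that lay above the interval of Gad2, 1.21 to 1.78. Libraries 1 and 6 were the higher pair of Slc32a1 and libraries 9 and 11 the lower, the reverse of Gad2.

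Slc6a11 was measured at 6.55, 4.24, 8.53 and 8.52 CPM in TRAP and at 23.5, 18.7 and 28.9 CPM in input. The log2 fold change was -1.77 ± 0.32 (standard error, adjusted p = 0.000340). Astrocyte markers, a list that does not hold Slc6a11, had a median log2 fold change of -1.34. Their summed level, mostly Aldoc, was 1006 to 1450 CPM in TRAP and 1699 to 1839 CPM in input. Their part in the level of Slc6a11 was not tested.

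Abat was measured at 434, 448, 490 and 455 CPM in TRAP and at 274, 240 and 273 CPM in input. Its log2 fold change, 0.80 with a standard error of 0.07 (adjusted p = 3.70e-07), was the smallest of the 5 in size, and its replicates were the closest, with a CV of 5.20% in TRAP.

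Levels of different genes were compared per length, as normalized counts per kilobase of merged exon (RPKM). In TRAP of non-defeated mice the order was Gad1 at 205 ± 33.6 RPKM, Gad2 at 76.9 ± 8.30, Abat at 58.9 ± 3.06, Slc32a1 at 15.9 ± 1.60 and Slc6a11 at 1.38 ± 0.404 (SD, n = 4), and no neighbours in that order overlapped. In input the order was Gad1 at 43.1 ± 3.18 RPKM, Abat at 33.8 ± 2.52, Gad2 at 27.2 ± 5.41, Slc6a11 at 4.69 ± 1.01 and Slc32a1 at 2.18 ± 0.294 (SD, n = 3). There Abat (30.9 to 35.4 RPKM) and Gad2 (21.4 to 32.1 RPKM) overlapped. Abat and Gad2 thus changed places between input and TRAP, as did Slc32a1 and Slc6a11.

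Ratios within a library do not depend on the scaling between libraries and are given as a description. The RPKM ratio of Gad1 to Gad2 was 1.62 ± 0.259 in input (SD, n = 3) and 2.67 ± 0.287 in TRAP of non-defeated mice (SD, n = 4), and the ranges, 1.35 to 1.86 and 2.39 to 2.96, did not overlap. Slc32a1 relative to the sum of Gad1 and Gad2 was 0.0311 ± 0.00234 in input and 0.0576 ± 0.0129 in TRAP. Abat relative to that sum was 0.483 ± 0.0194 in input and 0.211 ± 0.0181 in TRAP. The loading message was therefore higher relative to the synthesis messages in TRAP, and the breakdown message lower. Slc6a11 relative to the sum was 0.0664 ± 0.00912 in input and 0.00487 ± 0.00123 in TRAP.

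**Figure D2:**
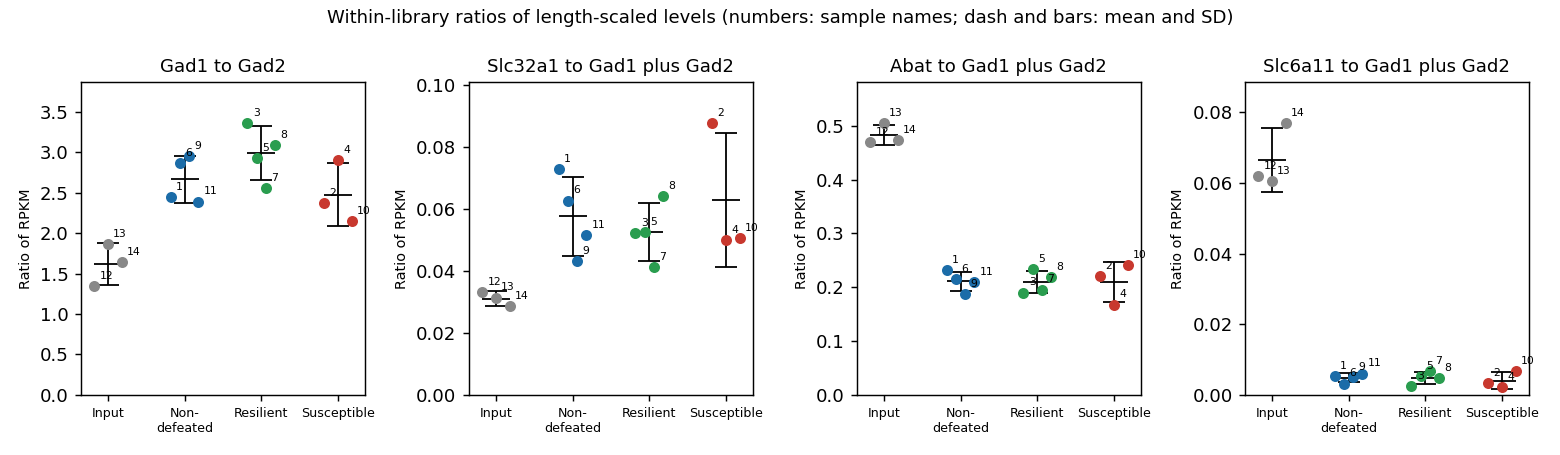
Ratios of length-scaled levels (RPKM, vertical axes) within each library, by group (horizontal axes), with sample numbers beside the points and mean and SD as dash and bars. Input and TRAP did not overlap in any of the 4 ratios, and the 3 TRAP groups overlapped in every one, with Gad1 to Gad2 between 2.15 and 3.36.

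The other genes of the GABA pathway did not move as a block between input and TRAP. Of 18 tested, 5 rose, 4 fell and 9 did not pass the test, while 27.4% of all genes tested rose and 27.6% fell. The median log2 fold change was -0.09 against -0.04 for all genes tested. Among those that rose were Slc38a1, a glutamine transporter, and Aldh5a1. Slc38a1 had 135 CPM in TRAP and 54.8 in input, a log2 fold change of 1.30 (adjusted p = 4.41e-07), and Aldh5a1 had 51.8 and 22.4 CPM (1.21, adjusted p = 6.38e-07). Among those that fell were Slc1a2 and Slc1a3, the main glutamate transporters of astrocytes. Slc1a2 had 55.1 and 191 CPM (-1.80, adjusted p = 8.11e-06), and Slc1a3 had 38.0 and 125 CPM (-1.72, adjusted p = 4.77e-05).

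The vesicular proton pump powers GABA loading and also the filling of other vesicles and the acid interior of lysosomes. Of 15 of its subunits and accessory proteins, 10 rose and none fell, with a median log2 fold change of 0.42. Of all genes tested, 27.4% rose and 27.6% fell. The smallest p-values belonged to Atp6v0c, the subunit of the proton-carrying ring, at 1611 CPM in TRAP and 608 in input, to Atp6v1f at 426 and 187 CPM, and to Atp6v0b at 216 and 106 CPM. Their log2 fold changes were 1.41, 1.19 and 1.03. Each lay under that of Gad1 and of Slc32a1.

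**Figure D3:**
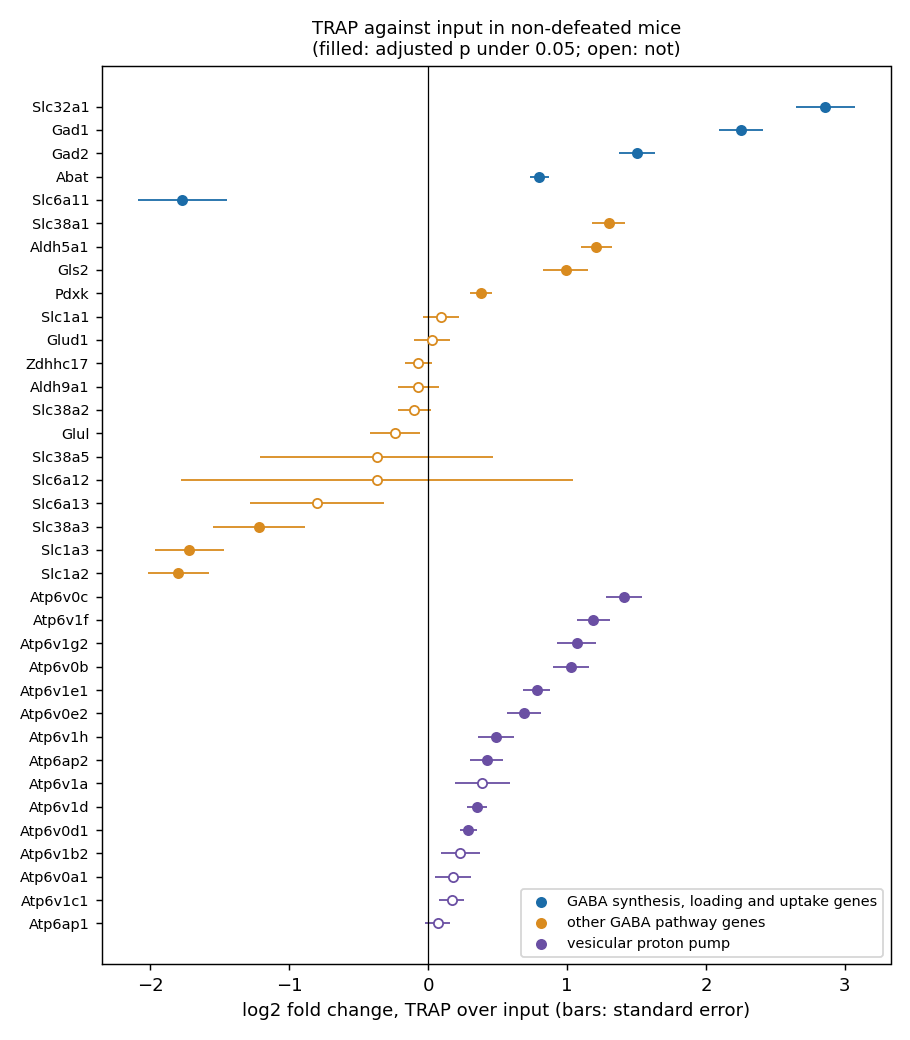
Log2 fold change of TRAP over input in non-defeated mice (horizontal axis, bars for the standard error) for the 5 genes, 16 other genes of the pathway and 15 proton pump genes (vertical axis), with filled points for an adjusted p under 0.05. Slc32a1 at 2.86 and Gad1 at 2.25 lay furthest to the right, and Slc1a2 at -1.80 and Slc6a11 at -1.77 furthest to the left.

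Between TRAP groups, none of the 5 genes passed the adjusted threshold in any of the 3 comparisons, which share libraries with each other. Abat came closest: in susceptible mice it was 0.871 of the non-defeated level and 0.836 of the resilient level. Gad2 and Slc32a1 had log2 differences between -0.10 and 0.00, with intervals on both sides of 0, and for Gad1 and Slc6a11, with differences of up to -0.30 and -0.55, the intervals also included 0.

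Resilient and non-defeated mice were compared first, to see whether defeat without social avoidance went with a change in these messages. Across all genes tested, 0% passed the adjusted threshold, 4.38% had an unadjusted p under 0.05 and 2.35% had groups that did not overlap. None of the 5 genes met any of these criteria, and the same holds for DESeq2. Gad1 was measured at 1882, 1529, 1652 and 1683 CPM in resilient libraries 3, 5, 7 and 8, within the range of non-defeated libraries. Its log2 difference was 0.11 with a 95% interval of -0.18 to 0.39. Gad2 was measured at 430, 401, 496 and 418 CPM, with a log2 difference of -0.05 (95% interval -0.30 to 0.20). Library 5 was the lowest of the group for both synthesis genes.

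Slc32a1 was measured at 46.6, 39.5, 34.7 and 52.3 CPM in resilient libraries, a wider spread than in non-defeated mice, with a log2 difference of -0.04 (95% interval -0.40 to 0.32). Slc6a11 was measured at 3.94, 7.04, 10.3 and 6.83 CPM, with a log2 difference of 0.02 (95% interval -0.63 to 0.66). Library 7, highest for Slc6a11 and lowest for Slc32a1, was also the library with the highest sum of thalamic markers. Abat was measured at 470, 484, 455 and 493 CPM, with a log2 difference of 0.06 (95% interval -0.08 to 0.19). The interval of Abat was the narrowest of the 5 genes and that of Slc6a11 the widest.

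Susceptible mice were next compared with non-defeated mice. Of all genes tested, 0.0376% passed the adjusted threshold, 13.3% had an unadjusted p under 0.05 and 8.62% did not overlap between groups. Of the 5 genes, only Abat met the last 2 criteria. It was measured at 392, 400 and 401 CPM in susceptible libraries 2, 4 and 10, under the lowest non-defeated library at 434 CPM. The log2 fold change was -0.20 (standard error 0.07, 95% interval -0.35 to -0.05), and edgeR's adjusted p was 0.255. The exact permutation test over libraries gave p = 0.0286, the smallest that 3 against 4 allows. The CV of Abat was 1.25% over the susceptible libraries, lower than in any other group.

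Gad1 was measured at 1236, 1752 and 1121 CPM in susceptible libraries. Library 4 lay above 3 of the 4 non-defeated libraries, and libraries 2 and 10 lay below all of them. The log2 difference was -0.19 (95% interval -0.51 to 0.12, adjusted p = 0.575). It was -0.41 without library 4 and -0.07 without library 10. Without non-defeated library 9 it was -0.08, and in libraries 1 to 6 alone it was 0.06. Gad2 was measured at 401, 463 and 402 CPM, with a log2 difference of -0.10 (95% interval -0.37 to 0.17, adjusted p = 0.756).

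Slc32a1 was measured at 56.5, 43.1 and 30.5 CPM in susceptible libraries 2, 4 and 10, which include both the highest and the lowest of the 11 TRAP libraries. The log2 difference from non-defeated mice was -0.04 (95% interval -0.43 to 0.35). Slc6a11 was measured at 3.81, 3.43 and 7.19 CPM, with a log2 difference of -0.53 (95% interval -1.24 to 0.18, adjusted p = 0.499). Without library 10, one of those with high thalamic markers, it was -0.94 (adjusted p = 0.193), and without library 4 it was -0.34. Summed astrocyte markers, mostly Aldoc, overlapped, at 976 to 1729 CPM in susceptible and 1006 to 1450 CPM in non-defeated libraries. None of the 9 passed the test.

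Susceptible and resilient mice differ in social avoidance after the same stress. Of all genes tested, 1.89% passed the adjusted threshold, 20.9% had an unadjusted p under 0.05 and 15.1% did not overlap. Abat was again the one gene of the 5 with an unadjusted p under 0.05 and no overlap, its resilient libraries at 455 CPM or more and its susceptible libraries at 401 or less. The log2 fold change was -0.26 (standard error 0.07, 95% interval -0.41 to -0.11), and edgeR's adjusted p was 0.0650. In DESeq2 on these groups alone the adjusted p was 0.0451, so the side of the threshold depends on the test. By p, Abat ranked at place 688 of 21298 genes in this comparison and at place 964 in that with non-defeated mice.

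The difference of Abat had the same sign among low and among high sample numbers. Within libraries 1 to 6, the log2 difference from resilient mice was -0.27 and that from non-defeated mice -0.15. Within libraries 7 to 11, where 1 library is susceptible, they were -0.24 and -0.23. Markers of other cell types also differed between these groups, and none of them passed the adjusted threshold. Thalamic markers were lower in susceptible mice in 8 of 8 cases in both comparisons, with median log2 differences of -0.72 and -1.24. The 8 genes were measured in the same libraries and are not independent cases. Their sums overlapped, at 47.2, 50.8 and 153 CPM in susceptible libraries 2, 4 and 10. Resilient libraries 3, 5 and 8 were at 35.8, 61.3 and 56.3 CPM, and library 7 alone was at 706 CPM. Non-defeated libraries 1 and 6 were at 41.4 and 39.4 CPM, and 9 and 11 at 379 and 237 CPM. Markers of other interneurons were higher in 7 of 10 cases against non-defeated and 9 of 10 against resilient mice, with medians of 0.17 and 0.15. They summed to between 539 and 905 CPM in susceptible, 462 and 665 in non-defeated and 466 and 818 in resilient libraries, mostly Sst and Npy, at 304 and 290 CPM in susceptible and 190 and 184 in non-defeated mice. Cck, a marker of another interneuron class, was at 114 CPM in susceptible, 97.6 in non-defeated and 91.8 in resilient mice. Its susceptible libraries lay above all other TRAP libraries. Groups did not overlap for 8.62% of all genes tested against non-defeated and 15.1% against resilient mice. Cnr1, on the same list, was at 21.9 CPM in susceptible, 22.0 in non-defeated and 20.3 in resilient mice, with ranges that overlapped. The 4 endothelial markers summed to between 8.03 and 13 CPM in susceptible, 3.29 and 5.88 in non-defeated and 4.18 and 18.2 in resilient libraries. Cldn5, a tight junction gene, was at 7.38 CPM in susceptible, 6.56 in resilient and 2.95 in non-defeated mice (edgeR adjusted p = 0.179 for susceptible against non-defeated). Against resilient mice, 2 of the 4 were higher and 2 lower, with a median log2 difference of 0.02. The part of these markers in the level of Abat was not tested, other than by leaving out the libraries of high thalamic markers. With the 5 libraries of high thalamic markers left out, Abat was at -0.28 against resilient mice (adjusted p = 0.0813) and at -0.16 against non-defeated mice (adjusted p = 0.720).

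Gad1 had a log2 difference of -0.30 between susceptible and resilient mice (95% interval -0.61 to 0.01, adjusted p = 0.260), which was -0.52 without susceptible library 4 and -0.17 without susceptible library 10. Slc6a11 had -0.55 (95% interval -1.26 to 0.16, adjusted p = 0.370), which was -0.96 without susceptible library 10 and -0.30 without resilient library 7. For both genes the groups overlapped. Gad2 had -0.05 (95% interval -0.32 to 0.22) and Slc32a1 0.00 (95% interval -0.39 to 0.39).

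**Figure D4:**
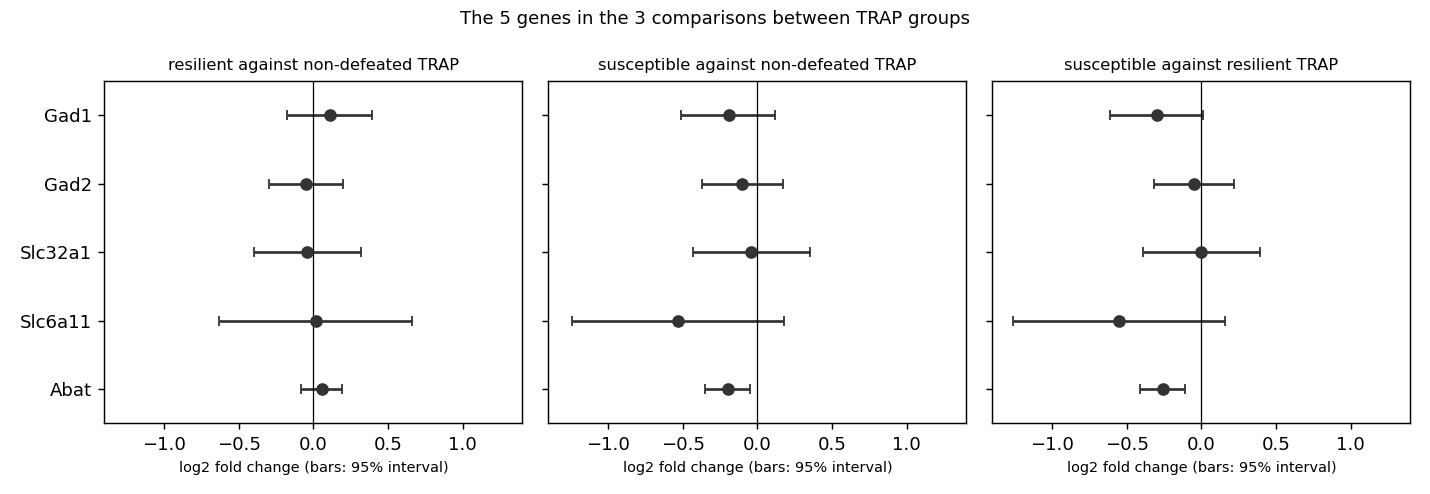
Log2 fold change (horizontal axes, bars for the 95% interval) of the 5 genes (vertical axis) in the 3 comparisons between TRAP groups. The interval of Abat lay below 0 in both comparisons of susceptible mice, with -0.20 against non-defeated and -0.26 against resilient mice, and every other interval included 0. The intervals are not adjusted for the number of genes tested. The edgeR adjusted p of Abat was 0.255 and 0.0650 in these comparisons. Of all genes tested, 13.3% and 20.9% had an unadjusted p under 0.05 in them.

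Ratios within libraries overlapped between all TRAP groups. Gad1 to Gad2 was 2.99 ± 0.335 in resilient mice (SD, n = 4) and 2.48 ± 0.392 in susceptible mice (SD, n = 3). Abat relative to the sum of Gad1 and Gad2 was 0.211 ± 0.0181 in non-defeated, 0.209 ± 0.0200 in resilient and 0.209 ± 0.0377 in susceptible mice. The lower Abat of susceptible libraries was thus not seen relative to the synthesis genes, whose own level varied more. Slc32a1 relative to the sum ranged from 0.05 to 0.0878 in susceptible mice, with library 2 alone at the upper end.

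In edgeR, no other gene of the pathway or of the proton pump passed the adjusted threshold between TRAP groups. In resilient against non-defeated mice, the pathway genes with the smallest p-values were Slc38a5, a glutamine transporter, with 1.52 CPM against 0.468 (adjusted p = 1.0) and a count of 0 in 1 library, and Aldh9a1, an aldehyde dehydrogenase, with 36.8 against 31.3 CPM (adjusted p = 1.0). The pump genes were Atp6ap1, with 150 against 133 CPM (adjusted p = 1.0), and Atp6v1f, with 385 against 426 CPM (adjusted p = 1.0). At an unadjusted p under 0.05, edgeR found 1 of 18 pathway genes and 0 of 15 pump genes, against 4.38% of all genes tested. DESeq2 found 0 of both lists.

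In susceptible against non-defeated mice, 2 of 18 pathway genes had an unadjusted p under 0.05, against 13.3% of all genes tested. Slc38a2, a glutamine transporter, was at 29.5 against 38.2 CPM (log2 fold change -0.37, adjusted p = 0.218). Its groups did not overlap, which held for 8.62% of all genes tested. The other was Aldh5a1, the enzyme after Abat in the pathway, at 61.5 against 51.8 CPM (0.25, adjusted p = 0.350). For Aldh5a1 the difference had the opposite sign to that of Abat, and its groups overlapped. Of the pump, 2 of 15 genes had an unadjusted p under 0.05, Atp6v0a1 at 136 against 178 CPM (adjusted p = 0.245) and Atp6v1b2 at 928 against 1155 CPM (adjusted p = 0.361).

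In susceptible against resilient mice, 20.9% of all genes tested had an unadjusted p under 0.05. The same held for 5 of 18 pathway genes, 2 higher and 3 lower. The smallest p-values belonged to Pdxk, whose kinase feeds the synthesis of pyridoxal phosphate, at 227 against 272 CPM (log2 fold change -0.26, adjusted p = 0.104), and Slc38a2 at 29.5 against 37.0 CPM (-0.33, adjusted p = 0.133). Of the pump, 4 of 15 had an unadjusted p under 0.05, 1 higher and 3 lower, led by Atp6ap1 at 119 against 150 CPM (adjusted p = 0.0699) and Atp6v0a1 at 136 against 185 CPM (adjusted p = 0.0805). The median log2 difference was -0.15 for the pathway genes and 0.01 for the pump genes, against 0.00 for all genes tested. DESeq2 called 1 pathway gene and 2 pump genes here, among 991 of 27405 genes called in all. They were Slc1a1, a glutamate transporter of neurons named after its values were seen (55.1 against 71.6 CPM, DESeq2 adjusted p = 0.0252), and the same Atp6ap1 and Atp6v0a1.

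Slc6a11 also varied with the sample number. Over the TRAP libraries it lay between 3.43 and 7.04 CPM in libraries 1 to 6 (median 4.09, n = 6) and between 6.83 and 10.3 CPM in libraries 7 to 11 (median 8.52, n = 5). Summed astrocyte markers, mostly Aldoc, ranged from 976 to 1614 CPM (median 1049) and from 1328 to 1729 CPM (median 1450) in the same libraries. Thalamic markers ranged from 35.8 to 61.3 CPM and from 56.3 to 706 CPM. Neither list's part in the level of Slc6a11 was tested. Gad2 had medians of 410 and 486 CPM and Slc32a1 of 46.8 and 40.5 CPM, with ranges that overlapped.

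Across the 11 TRAP libraries, which share the 3 conditions and differ in depth and in the markers above, likeness of log2 levels is given as a description. Pearson's r was 0.61 between Gad1 and Gad2, 0.65 between Gad1 and Abat and -0.56 between Slc32a1 and Slc6a11, and 0.11 between Gad1 and Slc32a1. Of 14189 genes with a mean of at least 2 CPM in TRAP, those most like Gad1 were Osbpl2 (r = 0.97), an oxysterol-binding protein, and Trappc13 (0.95), a part of a membrane trafficking complex. Most like Gad2 were Herpud1 (0.95), a protein of the endoplasmic reticulum, and Gm11978 (0.95). Most like Slc32a1 were Klf5 (0.90), a transcription factor, and G6pc3 (0.90), a glucose-6-phosphatase. Most like Slc6a11 were Arhgef10 (0.96), an exchange factor for small GTPases, and Stag2 (0.95), a cohesin subunit, and most like Abat were Fam49a (0.97) and Ppp1r37 (0.96). They are the highest of many values over few libraries and describe these libraries alone.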

How the data were processed

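TRAP RNA of 11 samples and input RNA of 3 samples, total RNA by the design text, were sequenced as single reads from SMART-Seq v4 cDNA, which does not mark strand. The authors trimmed reads with fastp, aligned them to mm10 with STAR (2.5.3a in the submitters' processing notes, which also name HTSeq) and deposited raw counts per gene without normalization. The annotation release used for counting is not given in the sources used here. Genes were named, and exon lengths and GC content taken, from release M21 of the GENCODE mouse annotation.

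Counts were analysed with edgeR 4.0.16 in R 4.3.3. All 14 libraries were fitted in 1 model of 4 groups, with TMM normalization, the default filter on low counts and the quasi-likelihood test, 2-sided, with Benjamini-Hochberg adjustment over the 21298 genes tested and a threshold of 0.05. Intervals come from the same fit. Exact permutation tests over samples used the difference of mean log2 CPM (prior count 2). DESeq2 1.42.0, the test of the study, was an alternative, as were other normalizations, filters, sample sets, a GC offset, sample number and leaving out each library. Labels name no separate cultures or batches, so p-values measure the spread between these samples. Steps were tested on simulated data.

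The members and lists were chosen with earlier results of these data known. Of the lists, the genes named were the 3 with the smallest p per direction in TRAP against input and the 2 with the smallest p in each comparison between TRAP groups; for likeness, the 2 with the highest r for each member. Leaving out the libraries with summed thalamic markers above 100 CPM was chosen after seeing the data. Of the genes that met the rule, 2 are not reported here. Of the 19 pathway genes listed, Pdxp was not analysed here. Library totals were 64110214 to 94726962 counts. Reads carry no molecular identifiers, so they are not independent molecules, and totals do not give the error of sampling molecules.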

Additional observations from a re-analysis of the deposited data

How the results depend on the processing

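All 5 genes passed the threshold in TRAP against input under each of 16 alternatives, with the same direction. Scaling by total counts moved the median of all genes from -0.04 to -0.23 in that comparison. Between TRAP groups no gene passed except Abat in susceptible against resilient mice with DESeq2, where 1 gene of the 5 was called (log2 fold change -0.26, adjusted p = 0.0451). Over the other alternatives without a library left out, the highest adjusted p of Abat was 0.178, and it was between 0.0628 and 0.208 with each library left out. Against non-defeated mice the adjusted p of Abat was between 0.255 and 0.720, and between 0.145 and 0.525 with each library left out. Differences near 0 changed sign. In resilient against non-defeated mice, Slc6a11 was at -0.01 with a GC offset. In susceptible against resilient mice, Slc32a1 was at -0.01 without a filter and with 2 groups only, and at -0.07 with a term for sample number. Without the 5 libraries of high thalamic markers, the differences of Gad2 were 0.02 (resilient against non-defeated), 0.07 (susceptible against non-defeated) and 0.06 (susceptible against resilient), and those of Gad1 and Slc32a1 in susceptible against non-defeated mice were 0.08 and 0.04. With each library left out, Gad2 ranged from -0.12 to 0.00 in resilient against non-defeated mice and from -0.12 to 0.02 in susceptible against resilient mice. Slc32a1 ranged from -0.14 to 0.05 (resilient against non-defeated), from -0.27 to 0.16 (susceptible against non-defeated) and from -0.23 to 0.20 (susceptible against resilient), and Slc6a11 from -0.23 to 0.21 (resilient against non-defeated). Within sample numbers 1 to 6, susceptible against non-defeated mice gave 0.06 for Gad1 and 0.07 for Gad2. Within 7 to 11, with 1 susceptible library, the values were -0.61 for Gad1, -0.30 for Gad2 and -0.41 for Slc32a1, and against resilient mice -0.57, -0.18 and -0.48. The cause was not tested for any of these. Of 456 values recomputed, 424 were counted as unchanged. For tested fold changes this meant the same direction and the same side of the threshold. For counts of genes called it meant the same count. Values within sample numbers have no test, and they counted as unchanged if they differed from the main value by less than the SD within groups. Their sign could differ.

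The background moved more. Of all genes, 8 passed in susceptible against non-defeated mice, but 189 with the likelihood ratio test, 114 with DESeq2, 16 with a minimum of 10 counts, 13 with RLE size factors, 5 with the 2 groups only and 0 with the TRAP libraries only, with a term for sample number or without the thalamic libraries. In resilient against non-defeated mice 0 passed, and 4 with the likelihood ratio test. In susceptible against resilient mice 403 passed, but 1099 with the likelihood ratio test, 991 with DESeq2, 126 without a filter, 199 with a GC offset, 816 without the thalamic libraries, 1 with the TRAP libraries only and 0 with the 2 groups only. With each library left out, the counts were 0 to 6 against non-defeated and 6 to 1058 against resilient mice. No paired analysis was possible because the groups share no sample numbers. The numbers do not tell whether input and non-defeated TRAP samples came from the same mice. The tests treat all libraries as independent.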
